A study of Mus musculus with 16 samples.

Results

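The period, cryptochrome and DEC genes are the repressor arm of the circadian clock, and 8 of them were followed in mouse liver: Per1, Per2, Per3, Cry1, Cry2, Ciart, Bhlhe40 (DEC1) and Bhlhe41 (DEC2). They were chosen by name, as genes with a probe set that the platform annotation assigns to that gene alone, and Ciart, which has several, is represented by the brightest. All 8 were on the array, of 19938 genes with a probe set of their own. A filter on dim probe sets kept 6 of the 8, and 13152 genes in all. Cry1 and Bhlhe41 did not pass it.

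The study compared livers of strain 129 mice on Affymetrix whole-transcript arrays, with 4 arrays for each of 4 genotypes: Rassf1a-/- (both copies of the tumor suppressor Rassf1a lost), Rassf1a-/- Sav1+/- (the same with 1 copy of Sav1, a Hippo pathway scaffold gene, also lost), Sav1+/- and wild type. No treatment is named for any group. The sources used here do not give age, sex, the time of day of collection, how the alleles were made or whether each array is a separate animal, so p-values measure only the spread between these samples. Replicates are numbered in the order of deposition, and a number pairs nothing.

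In the clock of mouse liver, CLOCK and BMAL1 (the product of Arntl) bind E-box elements and switch on Per and Cry genes. PER and CRY proteins return to the nucleus and inhibit CLOCK and BMAL1, and the loop takes about a day. CIART (CHRONO) binds BMAL1 and represses it, and the DEC proteins are basic helix-loop-helix repressors that occupy E-boxes themselves. A second loop runs through the REV-ERB and ROR receptors, which repress and activate Arntl, and D-box elements bound by DBP, TEF, HLF and NFIL3 add a further input to Per genes. Transcripts of these genes rise and fall with time of day in liver, and the genotype of a liver and its time of collection cannot be told apart here.

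Promoter sequences from RefSeq (GRCm38.p6, from 250 bases before to 50 after an annotated start) were matched for 6 of the 8 genes, in 7 windows. Per2 and Bhlhe40 had none. Both strands were searched for the E-box CACGTG, the E'-box CACGTT, the D-box TTATGTAA or TTACGTAA, the ROR core TAGGTCA or TGGGTCA and the cAMP response element TGACGTCA. The windows of 4 genes are shown. Ciart and Per3 are shown because they had the largest differences described below, and Per1 because it holds a single E-box at its first start. Cry1 is shown because it holds the same element, but its signal was too dim to be tested. The lines give Ciart (chr3:95882179-95882478, minus strand), Per3 (chr4:151044616-151044915, minus strand), Per1 (chr11:69098699-69098998, plus strand) and Cry1 (chr10:85185005-85185304, minus strand), each 5' to 3' on the gene's strand with the matches in capitals.
Ciart: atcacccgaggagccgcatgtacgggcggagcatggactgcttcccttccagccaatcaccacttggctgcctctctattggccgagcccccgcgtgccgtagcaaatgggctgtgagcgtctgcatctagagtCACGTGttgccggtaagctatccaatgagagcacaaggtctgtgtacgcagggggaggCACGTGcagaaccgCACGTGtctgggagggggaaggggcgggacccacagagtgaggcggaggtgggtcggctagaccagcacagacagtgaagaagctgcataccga
Per3: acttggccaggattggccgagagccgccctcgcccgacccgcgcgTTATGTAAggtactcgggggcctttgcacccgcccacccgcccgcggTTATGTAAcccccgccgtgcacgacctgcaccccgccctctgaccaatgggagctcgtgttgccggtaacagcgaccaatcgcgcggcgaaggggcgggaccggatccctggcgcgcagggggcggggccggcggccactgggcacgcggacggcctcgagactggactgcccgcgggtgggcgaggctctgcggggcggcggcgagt
Per1: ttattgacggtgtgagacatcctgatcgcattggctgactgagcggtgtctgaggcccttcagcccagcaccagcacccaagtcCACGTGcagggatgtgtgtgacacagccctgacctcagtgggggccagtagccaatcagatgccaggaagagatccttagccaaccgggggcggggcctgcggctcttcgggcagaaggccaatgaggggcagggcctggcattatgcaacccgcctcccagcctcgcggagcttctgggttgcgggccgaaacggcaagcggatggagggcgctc
Cry1: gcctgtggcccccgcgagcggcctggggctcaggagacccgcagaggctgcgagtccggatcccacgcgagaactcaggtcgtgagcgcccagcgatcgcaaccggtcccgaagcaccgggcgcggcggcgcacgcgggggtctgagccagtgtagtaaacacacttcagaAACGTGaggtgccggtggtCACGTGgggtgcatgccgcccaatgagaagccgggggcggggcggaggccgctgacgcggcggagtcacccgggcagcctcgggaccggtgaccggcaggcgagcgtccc

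The Ciart window holds 3 E-boxes, which begin at positions -116, -58 and -44 from the start. Of 32841 promoter windows of the same length, 7.15% hold at least 1 E-box and 0.0883% hold 3 or more. The Per3 window holds 2 D-boxes and no E-box. Of all windows 1.06% hold at least 1 D-box and 0.0244% hold 2 or more. In Per1 the E-box lies at position -166 from the first start, and the window of its second start (chr11:69099902-69100201) holds none of the elements. Cry1 holds an E-box at position -60 and an E'-box, written AACGTG on this strand, at position -79. Bhlhe41 also holds 1 E-box and Cry2 1 E'-box, an element found in 4.69% of windows. The ROR core (6.45% of windows) and the cAMP response element (1.79%) were not found in these 7 windows. A match is a run of letters, not a measured binding site.

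Depth on these arrays is signal: medians over all probe sets lay between 7.198 and 7.51 on the log2 scale, and array pairs of 1 genotype correlated at 0.925 to 0.975. The hepatocyte transcripts Alb, Apoa1 and Ttr read 13.39 or more on all 16 arrays. Markers of 7 liver and blood cell types were examined and none passed the test in any comparison. Some types had few markers bright enough to test: 1 of 5 for cholangiocytes, 2 of 5 for lymphocytes and 1 of 3 for erythroid cells. The comparisons called 0% to 2.23% of all genes, so no call among so few markers is near that share. It does not show that cell composition was unchanged. In whole liver, fewer cells of a type and less RNA per cell cannot be told apart. Sav1 averaged 7.65 ± 0.27 in Rassf1a-/- Sav1+/- and 7.64 ± 0.37 in Sav1+/- livers, against 8.61 ± 0.14 in Rassf1a-/- and 8.53 ± 0.11 in wild-type livers (SD, n = 4 each). The Rassf1 probe set read 6.94 to 7.42 in Rassf1a-/- and 7.21 to 7.59 in wild-type livers, and 7.48 to 7.71 in Rassf1a-/- Sav1+/- and 6.99 to 8.14 in Sav1+/- livers. It does not single out the Rassf1a transcript and so checks nothing about that label. Signal of Y-linked genes was high on 5 arrays, 1 Rassf1a-/- (replicate 2), 2 Rassf1a-/- Sav1+/- (1 and 2) and 2 Sav1+/- (3 and 4), and on no wild-type array. Xist, a female marker, read 2.12 to 4.31 on those 5 arrays and 10.34 to 11.47 on the other 11. By these transcripts the 5 samples read as male and the rest, with all 4 wild types, as female. Each comparison with wild type therefore also differs in its mix of sexes.

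Loss of Rassf1a went with less Ciart, Per3, Per2, Per1 and Bhlhe40 RNA in liver. Averaged over both Sav1 states, Ciart was 15.0-fold lower, Per3 4.82-fold, Per2 3.28-fold, Per1 3.19-fold and Bhlhe40 1.77-fold lower. For each of these 5 genes, all 8 arrays without Rassf1a lay below all 8 arrays with it. Cry2 did not pass the test, and Cry1 and Bhlhe41 were too dim to be tested. Loss of 1 Sav1 copy gave no call among the 6 tested genes.

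**Figure D1:**
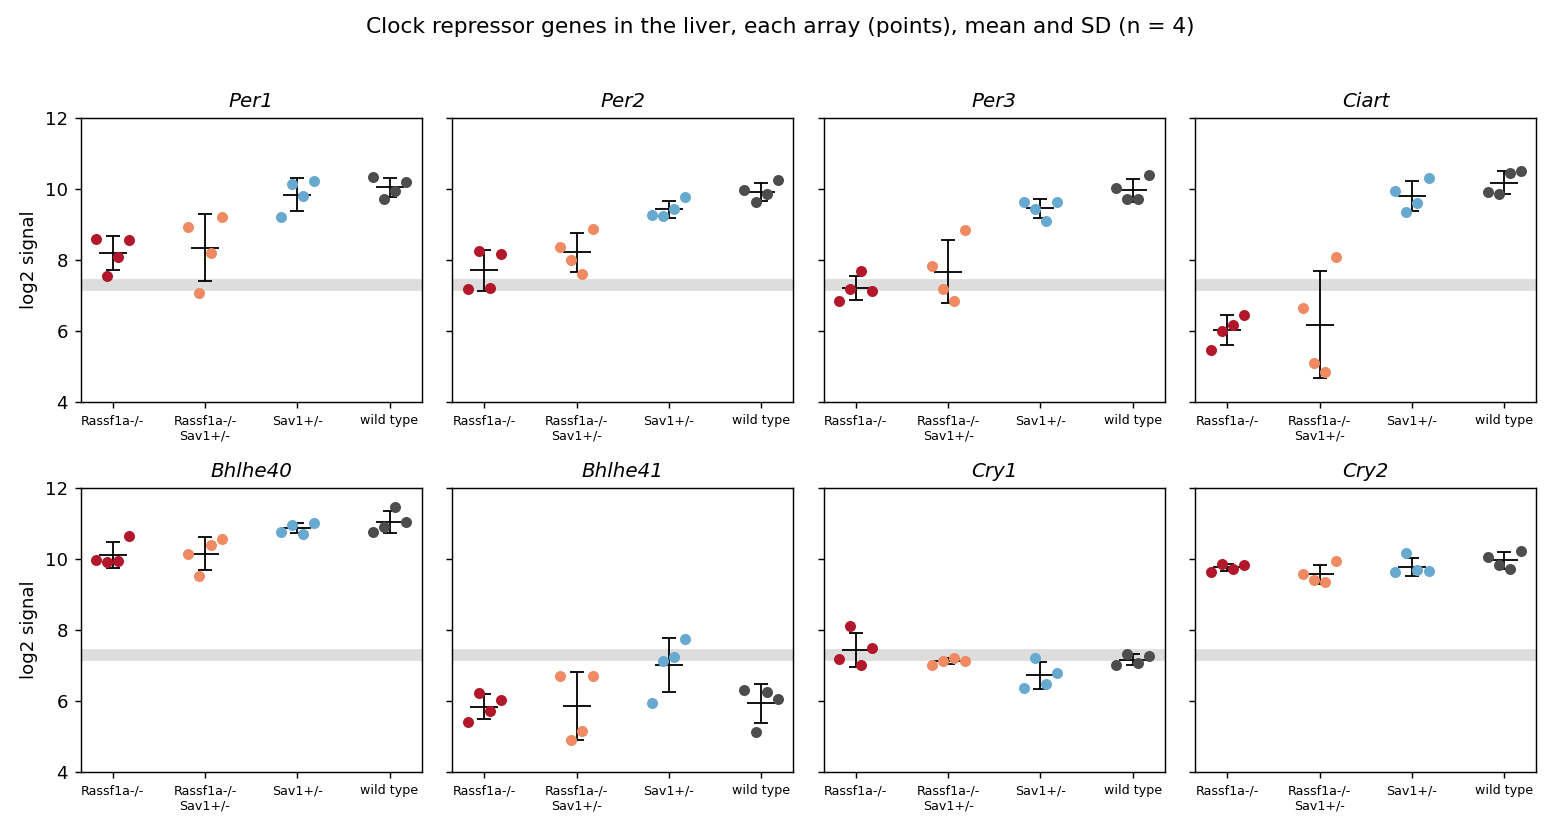
Log2 signal (vertical axis) of the 8 clock repressor genes on each of 16 arrays, in columns for Rassf1a-/-, Rassf1a-/- Sav1+/-, Sav1+/- and wild type; points are arrays, the bars are group means with SD (n = 4), and the grey band spans the filter level of the arrays, 7.16 to 7.44. For Ciart, Per1, Per2, Per3 and Bhlhe40, the points without Rassf1a lie below those with it.

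Ciart, the CLOCK and BMAL1 repressor also called Gm129 or CHRONO, had the largest difference in signal. It read 5.47, 5.98, 6.17 and 6.45 in Rassf1a-/- livers, against 9.93, 9.86, 10.44 and 10.50 in wild-type livers. It read 6.66, 5.08, 4.84 and 8.08 in Rassf1a-/- Sav1+/- livers, against 9.96, 9.34, 9.61 and 10.32 in Sav1+/- livers. Neither pair of groups overlaps, and replicate 4 of Rassf1a-/- Sav1+/- stands highest among the arrays without Rassf1a. The log2 difference was -4.16 (SE 0.50, adjusted p = 0.000397) for Rassf1a-/- against wild type, a 17.9-fold lower signal, and -3.64 (SE 0.50, adjusted p = 0.00239) for Rassf1a-/- Sav1+/- against Sav1+/-. Adjusted p-values here and throughout are from limma with Benjamini-Hochberg adjustment over all 13152 genes, and a gene was called below 0.05. All 4 Rassf1a-/- arrays and 3 of the 4 Rassf1a-/- Sav1+/- arrays read below the filter level, where signal compresses, so the size of the difference is less certain than its direction.

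Ciart has a second, dimmer probe set, which read 3.97, 5.51, 5.62 and 5.85 in Rassf1a-/- livers, against 9.37, 9.04, 9.44 and 9.75 in wild-type livers. Its values were 6.38, 5.06, 5.38 and 7.32 in Rassf1a-/- Sav1+/- livers, against 8.72, 8.41, 8.60 and 9.43 in Sav1+/- livers. Both probe sets place the arrays without Rassf1a below those with it. The second gave log2 differences of -4.16 (SE 0.44) and -2.76 (SE 0.44, adjusted p = 0.00696).

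Per3, a period gene whose loss in mice leaves rhythms largely intact, had the next largest difference. It read 6.84, 7.17, 7.68 and 7.13 in Rassf1a-/- livers, against 10.03, 9.71, 9.71 and 10.39 in wild-type livers. In Rassf1a-/- Sav1+/- livers it read 7.82, 7.19, 6.83 and 8.84, against 9.64, 9.43, 9.10 and 9.64 in Sav1+/- livers. The groups of both pairs stood apart, and the closest approach was again replicate 4 of Rassf1a-/- Sav1+/-. On the log2 scale Per3 fell by 2.76 (SE 0.32, adjusted p = 0.000339) in Rassf1a-/- against wild-type livers and by 1.78 (SE 0.32, adjusted p = 0.0134) in Rassf1a-/- Sav1+/- against Sav1+/- livers. It read below the filter level on 2 of 4 arrays in Rassf1a-/- and 2 of 4 in Rassf1a-/- Sav1+/-, so these sizes are less certain too.

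Per2 encodes one of the core period proteins, whose abundance sets when the repressive complex forms. It read 7.19, 8.26, 7.21 and 8.16 in Rassf1a-/- livers, against 9.97, 9.63, 9.85 and 10.25 in wild-type livers. In Rassf1a-/- Sav1+/- livers it read 8.37, 8.01, 7.59 and 8.88, against 9.26, 9.23, 9.42 and 9.78 in Sav1+/- livers. No array without Rassf1a reached an array with it. Per2 fell by 2.22 (SE 0.28, adjusted p = 0.000483) in Rassf1a-/- against wild-type livers, with 2 of 4 Rassf1a-/- arrays below the filter level. In Rassf1a-/- Sav1+/- against Sav1+/- livers the difference was -1.21 (SE 0.28) with an adjusted p of 0.050012, just above the threshold.

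Per1, the period gene that also responds within minutes to hours to hormones and cAMP, read 8.59, 7.56, 8.08 and 8.56 in Rassf1a-/- livers, against 10.33, 9.71, 9.94 and 10.20 in wild-type livers. It read 8.92, 7.07, 8.19 and 9.20 in Rassf1a-/- Sav1+/- livers, against 9.22, 10.14, 9.80 and 10.22 in Sav1+/- livers. The second pair came within a narrow margin of touching, between replicate 4 of Rassf1a-/- Sav1+/- and replicate 1 of Sav1+/-. Per1 fell by 1.85 (SE 0.37, adjusted p = 0.0209) in Rassf1a-/- against wild-type livers, a call lost without wild-type replicate 1, 3 or 4 or Rassf1a-/- replicate 2 or 3, with adjusted p up to 0.0934. For Rassf1a-/- Sav1+/- against Sav1+/- the difference was -1.50 (SE 0.37, adjusted p = 0.0692).

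Bhlhe40, the DEC gene with the brighter probe set, is an E-box repressor that is also induced by hypoxia and other stimuli. It read 9.96, 9.93, 9.94 and 10.66 in Rassf1a-/- livers, against 10.78, 10.90, 11.47 and 11.06 in wild-type livers. In Rassf1a-/- Sav1+/- livers it read 10.16, 9.51, 10.39 and 10.57, against 10.78, 10.96, 10.72 and 11.02 in Sav1+/- livers. The groups did not overlap in either pair, but the gaps were small. The differences were -0.93 (SE 0.22, adjusted p = 0.0695) and -0.71 (SE 0.22, adjusted p = 0.135), and neither was called. Averaged over both Sav1 states, with 8 arrays on each side, Bhlhe40 fell by 0.82 (SE 0.16, adjusted p = 0.00900). On the 11 arrays of low Y-linked signal the averaged difference was -0.63 (adjusted p = 0.153). Without Rassf1a-/- replicate 4, the array nearest to wild type, the difference from wild type was -1.11 with an adjusted p of 0.0287. Only 2 of 16 fits that left out 1 array called Bhlhe40 in that comparison. Its adjusted p rose to 0.268 without wild-type replicate 3.

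Cry2, one of the 2 cryptochrome repressors that partner PER, read 9.64, 9.86, 9.73 and 9.84 in Rassf1a-/- livers, against 10.07, 9.83, 9.71 and 10.24 in wild-type livers. It read 9.58, 9.40, 9.37 and 9.95 in Rassf1a-/- Sav1+/- livers, against 9.63, 10.17, 9.69 and 9.66 in Sav1+/- livers. The groups of both pairs overlapped, and no comparison called it. The averaged Rassf1a difference was -0.21 with a 95% confidence interval from -0.45 to 0.04 (adjusted p = 0.423). That interval leaves out falls as large as those of the 3 Per genes.

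Cry1, the cryptochrome that lengthens the clock's delay, was dim: 3 of its 16 values reached the filter level. It read 7.17, 8.10, 7.01 and 7.51 in Rassf1a-/- livers, against 7.005, 7.31, 7.08 and 7.27 in wild-type livers, and 7.02, 7.12, 7.21 and 7.13 in Rassf1a-/- Sav1+/- livers, against 6.36, 7.22, 6.49 and 6.80 in Sav1+/- livers. The groups overlapped in both pairs, and its averaged Rassf1a difference was 0.34 (SE 0.15), the opposite sign to the Per genes. In the fit without a filter the adjusted p was 0.407. Bhlhe41 reached the filter level on 1 array. It read 5.41, 6.22, 5.70 and 6.01 in Rassf1a-/- livers, against 6.30, 5.13, 6.24 and 6.04 in wild-type livers, and 6.69, 4.90, 5.14 and 6.69 in Rassf1a-/- Sav1+/- livers, against 5.93, 7.14, 7.23 and 7.75 in Sav1+/- livers. Both pairs overlapped, and no difference of either gene passed in the fit without a filter.

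Across all genes, 0.7% were called in either direction and 0.266% were called lower in Rassf1a-/- against wild-type livers. Among the clock repressors 4 of 6 were called lower there: Ciart, Per3, Per2 and Per1. In 5 of the 6 kept genes the groups did not overlap and Rassf1a-/- was lower, a pattern that 4.32% of all genes showed. The median difference over the 6 genes was -2.03, beside -0.01 over all genes.

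Rassf1a-/- Sav1+/- against Sav1+/- uses none of the same arrays for its means, so its differences are a second reading of the loss of Rassf1a. Its p-values are not independent of those above, because a shared fit gave both comparisons the same SE (0.50 for Ciart, 0.32 for Per3). Rassf1a-/- Sav1+/- against Sav1+/- called 0.836% of all genes and 0.167% lower. Among the lower ones were 2 of the 6 clock repressors, Ciart and Per3. The 5 genes Ciart, Per1, Per2, Per3 and Bhlhe40 did not overlap between groups, against 1.42% of all genes in that direction. The median over the 6 was -1.36, beside 0.08 over all genes. Those calls were lost on the 11 arrays of low Y-linked signal, which leave 2 arrays in each of these groups: Ciart then differed by -3.19 (adjusted p = 0.217) and Per3 by -1.70 (adjusted p = 0.286). They were also lost when the 2 genotypes were fitted alone (adjusted p = 0.0722 for Ciart and 0.157 for Per3), and that of Per3 without Rassf1a-/- Sav1+/- replicate 2 (adjusted p = 0.0722).

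**Figure D2:**
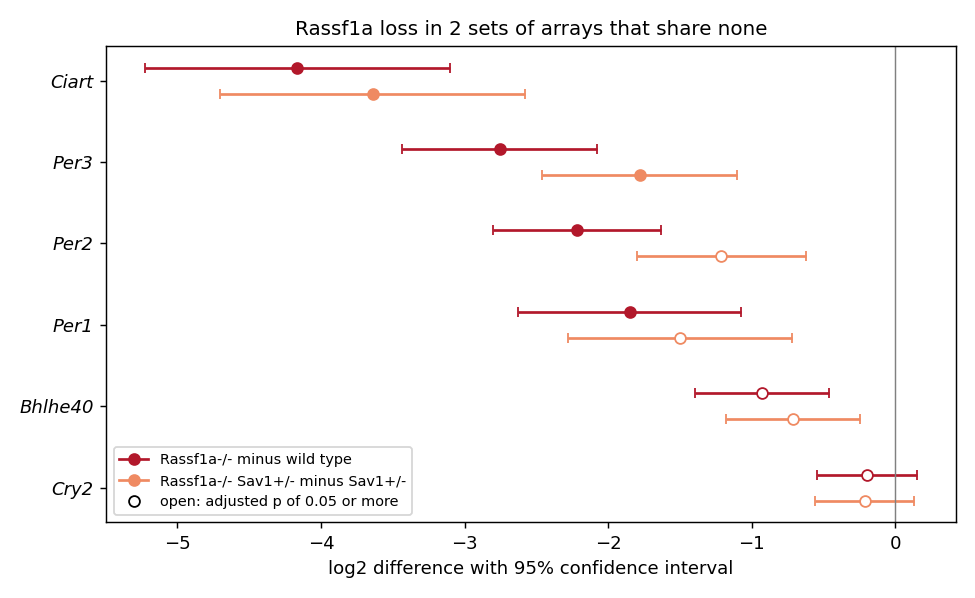
Log2 difference (horizontal axis) with limma's 95% confidence interval for the 6 kept genes, for Rassf1a-/- minus wild type (upper, dark) and Rassf1a-/- Sav1+/- minus Sav1+/- (lower, light); filled points were called at an adjusted p under 0.05. Ciart lies farthest left at -4.16 and -3.64, and the intervals of Cry2 include 0.

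Rassf1a-/- Sav1+/- against wild type, which shares arrays with both comparisons above, called 0.821% of all genes and 0.487% lower. Ciart (-4.02, adjusted p = 0.000739), Per3 (-2.29, adjusted p = 0.00219), Per2 (-1.71, adjusted p = 0.00597) and Per1 (-1.70, adjusted p = 0.0368) were called lower, and with Bhlhe40 they made 5 genes whose groups did not overlap, against 4.49% of all genes. On the arrays of low Y-linked signal none of the 4 was called, and Ciart had an adjusted p of 0.0678. The Per1 call also held in 5 of 10 other settings and was lost with no filter (adjusted p = 0.0745), with only the compared genotypes (0.0705), with trend and robust fitting (0.0573), with Y-linked signal as a covariate (0.117) and on the arrays of low Y-linked signal (0.228). It held in 7 of 16 fits that left 1 array out. It was lost without wild-type replicate 1, 2, 3 or 4, Rassf1a-/- replicate 3 or 4, Sav1+/- replicate 3, or Rassf1a-/- Sav1+/- replicate 2 or 3 (highest adjusted p = 0.108).

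The averaged Rassf1a effect, with 8 arrays on each side, called 2.23% of all genes, 0.471% lower. It called 5 of the 6 clock repressors lower, and 0.175% of all genes lay wholly lower on the 8 arrays without Rassf1a, as these 5 did. The differences were -3.90 for Ciart (SE 0.36, adjusted p = 1.04e-05), -2.27 for Per3 (SE 0.23, adjusted p = 2.12e-05), -1.71 for Per2 (SE 0.20, adjusted p = 7.77e-05) and -1.67 for Per1 (SE 0.26, adjusted p = 0.00153). These 4 calls held on the arrays of low Y-linked signal, and all 5 held in every fit that left out 1 array.

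In Sav1+/- against wild-type livers, 0% of all genes were called by limma, with 1204 genes at an unadjusted p under 0.05. No clock repressor was called: Per3 differed by -0.51 (adjusted p = 0.682), Per2 by -0.50 (adjusted p = 0.640), Ciart by -0.38 and Per1 by -0.20. Per3 was the 1 gene of the 6 whose groups did not overlap, lower in Sav1+/-, as for 4.24% of all genes. The averaged Sav1 effect called 0.0228% of all genes and no clock repressor, and for Per1 its 95% confidence interval ran from -0.58 to 0.52.

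The interaction asks whether the loss of Rassf1a did more or less in Sav1+/- livers than with both Sav1 copies. It called 0% of all genes (limma, 1236 at an unadjusted p under 0.05). Per2 gave 1.005 (SE 0.39, unadjusted p = 0.0205 and adjusted p = 0.454) and Per3 0.97 (SE 0.46, unadjusted p = 0.0474 and adjusted p = 0.526), both toward a smaller difference in Sav1+/- livers, and Ciart gave 0.52 (SE 0.71) by the brighter and 1.40 (SE 0.62, adjusted p = 0.5001) by the dimmer probe set. A difference in size between the Sav1 states was not detectable for any clock repressor after adjustment.

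Levels of each called gene therefore fell into a lower pair of genotypes, Rassf1a-/- and Rassf1a-/- Sav1+/-, and an upper pair, Sav1+/- and wild type. Within the lower pair the groups overlapped for all 5 genes, and within the upper pair for all but Per3. Mean Ciart signal was 6.02 ± 0.41 and 6.17 ± 1.51 in the lower pair, against 9.81 ± 0.42 and 10.18 ± 0.33 in the upper pair (SD, n = 4 each). Rassf1a-/- Sav1+/- had the widest spread of the 4 genotypes for Ciart, Per1, Per3 and Bhlhe40, with SDs of 1.51, 0.95, 0.88 and 0.46. In wild-type livers these SDs were 0.33, 0.28, 0.33 and 0.30.

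That spread was shared between genes. Within Rassf1a-/- Sav1+/-, replicate 4 was the highest array for all 5 called genes, on average 1.003 above its genotype mean, and replicate 1 was above the mean for all 5. Replicate 2 was below the mean for all 5, on average by -0.74. Replicates 1 and 2 both have high Y-linked signal, and its part in the spread was not tested. Among 4 other clock genes, Dbp, a D-box activator under E-box control, read 10.001, 7.80, 8.02 and 10.26 in replicates 1 to 4, and Tef, another D-box activator, read 9.74, 9.28, 9.24 and 10.34. Arntl, which encodes BMAL1, read 9.41, 10.15, 9.97 and 9.34. Dbp and Tef were high and Arntl low in the 2 replicates with the most Ciart. Nr1d1, a REV-ERB gene, did not follow that order and read 11.96, 11.99, 11.51 and 12.06. In Sav1+/- livers replicate 4 was highest for all 5 genes, and in wild-type livers replicate 4 was above and replicate 2 below the mean for all 5. The spread was less shared in Rassf1a-/- livers, where replicates 1 to 4 were above the mean for 1, 1, 2 and 4 of the 5 genes. There replicate 4 had both the most Ciart (6.45) and the most Arntl (10.25).

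**Figure D3:**
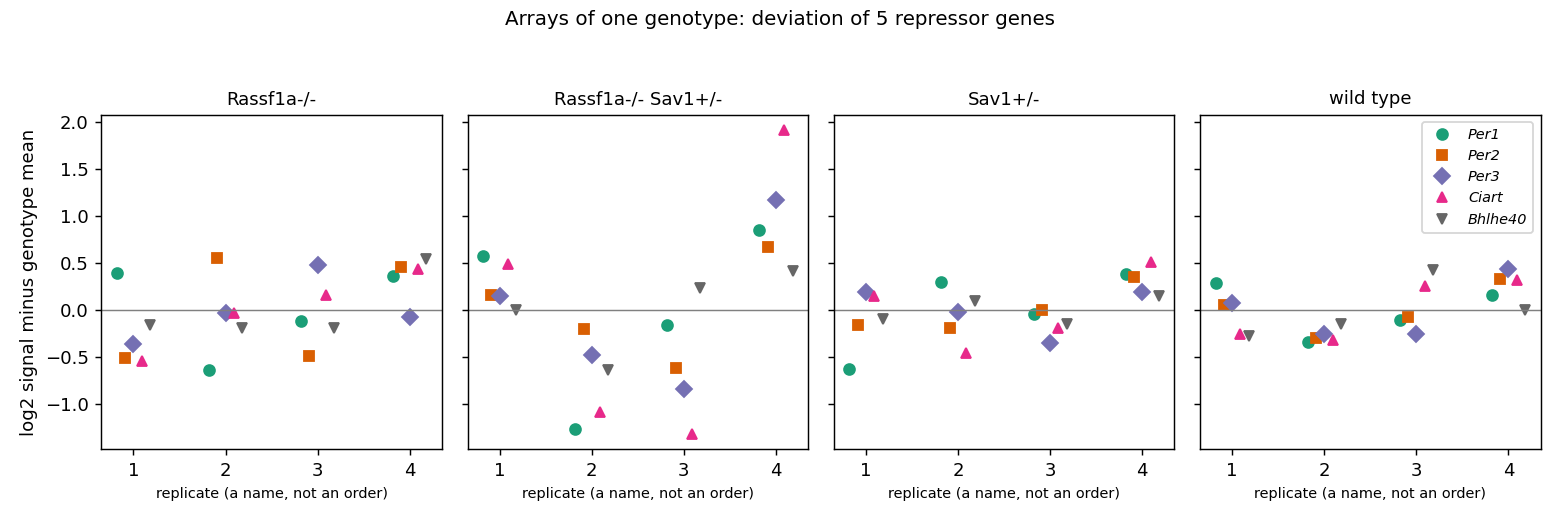
Deviation of Ciart, Per1, Per2, Per3 and Bhlhe40 from their genotype mean (vertical axis, log2) on each of the 16 arrays (horizontal axis, by genotype); each symbol is a gene. Replicate 4 of Rassf1a-/- Sav1+/- lies above 0 for all 5 genes and replicate 2 below 0.

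The rest of the clock was read from lists chosen with results of these data known, so their counts are descriptions. Of the clock activators, 2 of 4 were kept and both were higher without Rassf1a. Arntl averaged 10.08 ± 0.13 in Rassf1a-/- and 9.72 in Rassf1a-/- Sav1+/- livers, against 6.71 in both Sav1+/- and wild-type livers. Its averaged Rassf1a difference was 3.19 (SE 0.24), and that of Clock, its partner, was 1.01 (SE 0.15, adjusted p = 0.000969). Both had the opposite sign to the 5 called repressors and the same sign as the untested, dim Cry1.

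Among REV-ERB and ROR receptors, 4 of 5 were kept. Nr1d2, a REV-ERB, fell by 0.67 in the averaged comparison (SE 0.13, adjusted p = 0.00876). Nr1d1, the other REV-ERB and an E-box target like Per1, was higher in Rassf1a-/- Sav1+/- than in wild-type livers by 0.90. It was not called in the averaged comparison (0.40, adjusted p = 0.136). Its mean was 11.64 in Rassf1a-/- and 11.88 in Rassf1a-/- Sav1+/- livers, against 11.74 in Sav1+/- and 10.98 in wild-type livers. Sav1+/- livers, which have Rassf1a, thus also read above wild type. Nr1d1 therefore did not fall with the Per genes.

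All 4 D-box regulators were kept. Dbp fell by 2.67 (SE 0.33) and Tef by 1.44 (SE 0.14) in the averaged comparison, and both were called lower in the 3 comparisons of genotypes without Rassf1a. Nfil3, the D-box repressor, rose by 0.82 (SE 0.20, adjusted p = 0.0389), and Hlf was not called (-0.36, adjusted p = 0.101). Of 10 E-box output genes 9 were kept, and the averaged comparison called all 9 lower, with a median of -2.04 beside 0.03 over all genes. That list was chosen with results known, and E-boxes in its genes were not looked up. It leaves out Nr1d1, the E-box target above, which no comparison called lower. The count therefore does not describe E-box targets in general. They include Usp2, a deubiquitinase (-3.44), the kinase Wee1 (-2.19), the RNA-regulatory gene Noct (-2.14) and Coq10b of coenzyme Q biology (-2.04), and Dbp and Tef again. Among all genes the averaged comparison called 0.471% lower. Fewer of the 9 were called lower between single genotypes: 8 in Rassf1a-/- against wild type (0.266% of all genes) and 5 in Rassf1a-/- Sav1+/- against Sav1+/- (0.167%). Rassf1a-/- Sav1+/- against wild type called 6 of them lower (0.487%).

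**Figure D4:**
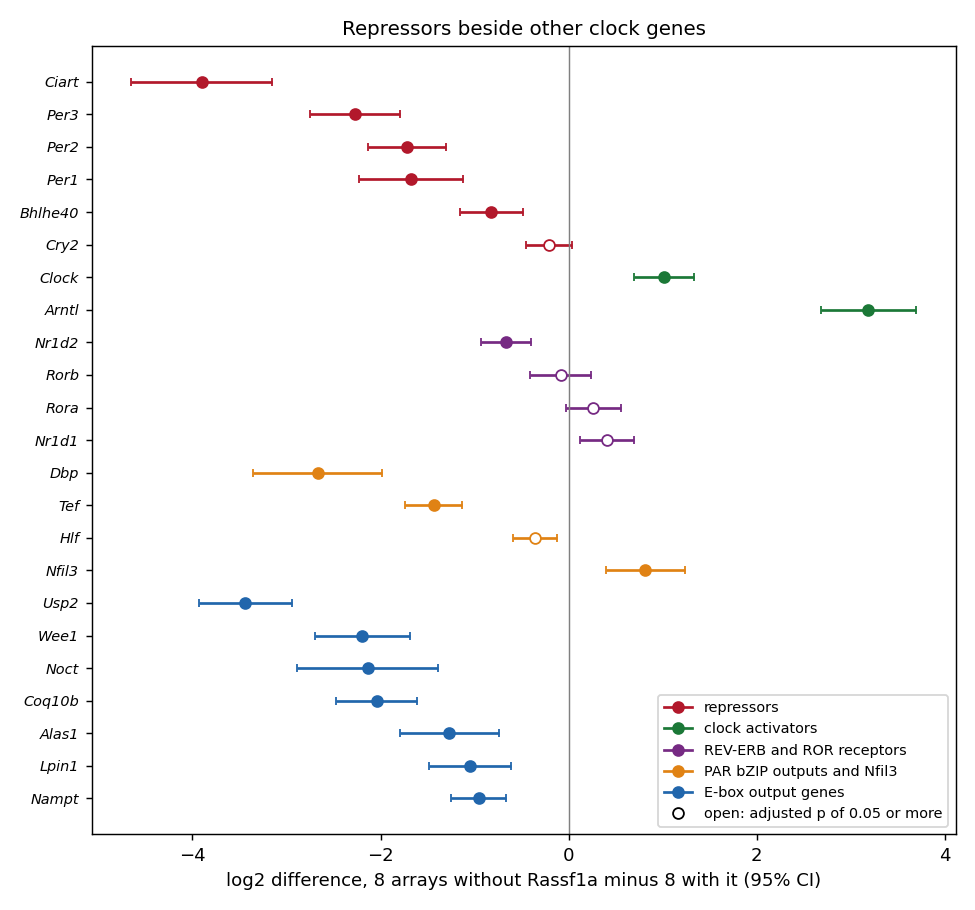
Averaged Rassf1a difference (horizontal axis, log2, with limma's 95% confidence interval) of the repressors beside clock activators, REV-ERB and ROR receptors, D-box regulators and E-box output genes; filled points were called. Ciart, Usp2 and Dbp lie on the lower side at -3.90, -3.44 and -2.67, and Arntl on the higher side at 3.19.

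Of 21 kinases, ubiquitin ligases and partners that act on PER and CRY proteins, 17 were kept and Usp2 was the only one called, lower in all 3 comparisons of a genotype without Rassf1a and in the averaged one. Csnk1d and Csnk1e, the casein kinases that phosphorylate PER, differed by 0.12 and 0.07 in the averaged comparison (adjusted p = 0.651 and 0.805). Of 17 genes that respond, in either direction, to glucocorticoids, cAMP or temperature, inputs that Per1 or Per2 share, 14 were kept. Tsc22d3, a glucocorticoid target, was the 1 call (-0.56, SE 0.12, adjusted p = 0.0185, averaged), and the list's median was -0.23, beside 0.03 over all genes. Each of these lists thus had 1 call in the averaged comparison, which called 2.23% of all genes, 0.471% lower. Shares called lower were 0.266% in Rassf1a-/- against wild type and 0.487% in Rassf1a-/- Sav1+/- against wild type. The share was 0.167% in Rassf1a-/- Sav1+/- against Sav1+/-.

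Genes with the most similar profile were named by the root mean square difference between centred log2 values over 16 arrays, where a smaller value means more alike. Per2 was closest to Coq10b (0.35) and Tef (0.35), against a spread of 0.97 for Per2 itself. For Per3 the closest were Coq10b (0.42) and Tef (0.49) with a spread of 1.24, and for Per1 they were Mfsd2a, a lysophospholipid transporter (0.44), and Coq10b (0.48) with a spread of 0.99. Ciart was closest to Usp2 (0.46), against a spread of 2.08. With the sign turned, Ciart was closest to Arntl (0.75), Per2 to Ndrg1 (0.43), and Per1 and Per3 to the beta tubulin gene Tubb2a (0.52 and 0.50). Profiles over these arrays share the split by Rassf1a genotype.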

How the data were processed

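RNA from mouse liver, in 16 samples with 4 for each of 4 genotypes, was measured on Affymetrix whole-transcript arrays. The authors deposited log2 signals per probe set. Expression Console from Affymetrix is the tool that the submitters' processing notes name, and for its version, background correction and normalization the sources used here give nothing. Of 35556 probe sets, 21789 have 1 gene in the platform annotation, 1621 have several and were left out, and 12146 have none. By gene ID 21698 matched RefSeq (GRCm38.p6).

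A probe set with 1 gene was kept if it reached the 40th percentile of such probe sets on at least 4 arrays. The brightest kept probe set then stood for its gene. A gene high in only 1 genotype can pass this way. Kept genes were fitted with limma 3.58.1 (lmFit and eBayes in R 4.3.3, tables read by data.table version 1.17.8) with a mean for each of 4 genotypes, which leaves 12 residual degrees of freedom, two-sided, with Benjamini-Hochberg adjustment within each of 7 comparisons. Errors beside differences are limma's SE. The fit was tested on simulated data. Promoter searches used Python 3.11.15 with numpy 2.4.6 and pandas 2.3.3. The rule names all 8 members, any called gene of a list, and the 3 most similar profiles (either sign) of Per1, Per2, Per3 and Ciart. The members and lists were chosen with earlier results of these data known. Alternatives were no filter, a filter at the 60th percentile, averaged probe sets per gene, quantile normalization, median centring, only the compared genotypes, array weights, trend and robust fitting, Y-linked signal as a covariate, only arrays of low Y-linked signal, and leaving out each array. The number of arrays limits the precision.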

Additional observations from a re-analysis of the deposited data

Results flagged for a closer look

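Among 36 groups of 4 arrays tested for a value far from the others (Dixon's 95% critical value), 2 met it, and chance gives about 1 in 20. Cry2 in Sav1+/- replicate 2 read 10.2, against 9.64 to 9.69 on the other 3 Sav1+/- arrays. Bhlhe40 in Rassf1a-/- replicate 4 read 10.7, against 9.93 to 9.96 on the other 3 Rassf1a-/- arrays. Without that array Bhlhe40 differed by -1.11 from wild type (limma, adjusted p = 0.0287) in place of -0.93 (adjusted p = 0.0695). Of 16 fits that left out 1 array, 2 called Bhlhe40 there, and the highest adjusted p was 0.268.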

How the results depend on the processing

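No paired analysis was possible because no replicate number is in the labels. In Rassf1a-/- against wild type, 3 to 5 clock repressors were called when 1 array was left out, and 4 or 5 under the other alternatives. In Rassf1a-/- Sav1+/- against Sav1+/-, 4 in place of 2 were called at the 60th percentile filter, after quantile normalization, after median centring and with Y-linked signal as a covariate. There 0 were called with only the compared genotypes and 0 with only arrays of low Y-linked signal. Leaving out 1 array gave 1 to 4 calls, with 1 without Rassf1a-/- Sav1+/- replicate 2 and 4 without replicate 4. In Rassf1a-/- Sav1+/- against wild type the count was 0 on the arrays of low Y-linked signal, 3 with no filter, with only the compared genotypes and with the Y-linked covariate, and 4 or 5 under the other settings, and leaving out 1 array gave 3 to 5. The averaged Rassf1a count was 5 in each fit that left out 1 array and 4 or 5 elsewhere, and Sav1+/- against wild type, the Sav1 average and the interaction stayed at 0. Of 1095 values of single genes 41 changed sign, and 0 of these had been called. The cause was not tested. For the averaged Sav1 effect, the Y-linked covariate gave 0.125 for Per1, -0.117 for Per2, 0.0694 for Per3 and 0.0307 for Bhlhe40. Arrays of low Y-linked signal gave 0.0967 for Per3 and 0.0542 for Bhlhe40. For Per2 quantile normalization gave -0.0417 and median centring -0.0128. The other Ciart probe set, added after seeing the data, gave 0.0924. Leaving out 1 array gave a Sav1 average of -0.17 to 0.19 for Per1, -0.11 to 0.11 for Per2, -0.22 to 0.12 for Per3, -0.43 to 0.11 for Ciart and -0.14 to 0.0330 for Bhlhe40. It gave -0.33 to 0.00832 for Per1 in Sav1+/- against wild type. For the interaction it gave -0.11 to 0.97 for Ciart and -0.14 to 0.11 for Cry2. The covariate turned Per1 in Sav1+/- against wild type to 0.0183, and array weights turned the Cry2 interaction to 0.0239. Low signal limits Cry1, Bhlhe41 and the size of the Ciart, Per3 and Per2 differences.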
